A study of Homo sapiens with 12 samples.

Results

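Galectins are lectins that bind β-galactoside sugars on glycoproteins. They are described here in RCH-ACV, an established human B-cell precursor acute lymphoblastic leukemia (ALL) cell line that expresses the pre-B-cell receptor (pre-BCR). The 5 genes were LGALS1, LGALS3, LGALS8 and LGALS9, which encode galectins, and LGALS3BP, which encodes a glycoprotein that binds galectin-3 and is not itself a galectin. They were selected by symbol from the 15612 genes of the clone 1 table and the 16848 genes of the clone 2 table, and all 5 were listed in both. LGALS1 was included as the gene of a pre-BCR ligand and the other 4 for contrast. The choice was made with earlier results of these data known, so the levels below are a description, with no test.

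RNA-seq libraries were made from dasatinib-resistant sublines of clone 1 and clone 2 and from dasatinib-sensitive sublines of the same clones, with 3 libraries in each of the 4 groups and 12 in all. Resistant cells were grown with increasing dasatinib, which blocks ABL kinases and kinases related to SRC, to at most 1 µM, and sensitive cells with vehicle (0.1% DMSO). Both clones came from the same cell line, RNA of each subline was taken on separate occasions to give its replicates, and each resistant subline was sampled in the continued presence of the drug. The value used was the authors' mean normalized count, the mean of size-factor-adjusted counts over the 6 libraries of a clone. This mean joins resistant and sensitive libraries, so no value is given for either condition, no error between libraries can be attached, and no comparison of resistant with sensitive cells is made here. Added over all genes, the means came to 19108037 for clone 1 and 24561485 for clone 2. The median gene had 406 in clone 1 and 442 in clone 2, and the depth of single libraries is unknown. The tables were normalized separately and the clones carry separate sequencing-set labels, so for a level that differs between clones, clone and sequencing set cannot be told apart.

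All galectins fold into a carbohydrate-recognition domain. Galectin-1 has 1 such domain and pairs with itself, galectin-3 joins 1 domain to a long repeat-rich tail, and galectin-8 and galectin-9 each link a pair of domains in 1 chain. In bone marrow, galectin-1 released by stromal cells is known to bind the λ5 part of the surrogate light chain (gene IGLL1) and to gather pre-BCRs together with integrins where a pre-B cell meets a stromal cell. Galectin-3 and galectin-9 are best known for binding glycans on leukocyte surface proteins, galectin-9 among others through TIM-3 (gene HAVCR2).

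For the 4 galectins described here, the number of domains was matched by copies of 1 stretch in the coding sequence. A stretch that is part of the sugar-binding site, coding for histidine, any residue, asparagine, proline and arginine, was searched in 1 coding sequence per gene of GENCODE release 29. It occurred once in LGALS1 and LGALS3, 2 times in LGALS8 and LGALS9, and 0 times in LGALS3BP, and 40 of 19639 coding sequences (0.204%) held it. Of these 40, 11 were galectin family genes. The family genes CLC, GRIFIN, LGALS13, LGALS14, LGALS16 and LGALSL held 0 copies, so the stretch marks neither every galectin nor galectins alone. The 6 copies are shown because, among the 5 genes, they set the 4 galectins apart from LGALS3BP and the pair-domain galectins from the others. Each is given with 15 bases on either side in lower case, and the capitals mark the 5 codons of the stretch.
LGALS1, coding bases 118 to 162: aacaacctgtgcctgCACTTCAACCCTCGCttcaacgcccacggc
LGALS3, coding bases 457 to 501: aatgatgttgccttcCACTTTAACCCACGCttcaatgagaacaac
LGALS8, first copy, coding bases 178 to 222: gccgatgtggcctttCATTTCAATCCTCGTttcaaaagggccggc
LGALS8, second copy, coding bases 796 to 840: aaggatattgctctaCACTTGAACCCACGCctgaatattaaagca
LGALS9, first copy, coding bases 166 to 210: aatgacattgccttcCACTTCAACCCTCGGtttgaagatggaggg
LGALS9, second copy, coding bases 784 to 828: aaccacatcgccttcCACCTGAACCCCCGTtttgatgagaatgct
Bases are counted from the first base of the start codon, on the coding strand. LGALS1 lies on chromosome 22, LGALS3 on chromosome 14, LGALS8 on chromosome 1, and both LGALS9 and LGALS3BP on chromosome 17.

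LGALS1, the gene of the pre-BCR ligand galectin-1, had a mean normalized count of 278 in clone 1 and 532 in clone 2. This placed the ligand gene near the middle of the genes listed. The share of genes with a lower mean was 42.5% in clone 1 and 53.7% in clone 2. Among genes listed for both clones it was 42.4% in clone 1 and 49.9% in clone 2. In CPM, means scaled so that each table adds up to 1000000, LGALS1 had 14.5 in clone 1 and 21.7 in clone 2, so its share of the table's counts was lower in clone 1. Over both clones, the genes closest to LGALS1 by level were PCSK6, FAM43A and FHOD3. Their distances on the log2 scale of the 2 clone means were 0.07 for PCSK6, 0.07 for FAM43A and 0.07 for FHOD3, out of 15581 genes, and this says only that the 2 means were alike.

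LGALS3, the gene of galectin-3, was near the lower end of both tables, with a mean normalized count of 14.2 in clone 1 and 20.3 in clone 2. A lower mean was found for 13.1% of genes in clone 1 and 20.3% in clone 2, and for 3.09% and 5.93% of the genes with a mean of at least 10 in clones 1 and 2. Among genes listed for both clones, the shares below LGALS3 were nearly alike, at 13.0% in clone 1 and 13.8% in clone 2. Its partner LGALS3BP, which codes for the secreted galectin-3-binding glycoprotein, had a mean normalized count of 2070 in clone 1 and 2539 in clone 2. Its mean exceeded that of 86.6% of genes in clone 1 and 87.0% in clone 2. Per kb of coding length, LGALS3BP was 62.6 times as high as LGALS3 in clone 1 and 53.5 times as high in clone 2. Counts of the binding protein's transcripts were thus high, and those of the galectin after which it is named were low.

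The pair-domain galectins were both well represented. LGALS8 had a mean normalized count of 1276 in clone 1 and 1533 in clone 2, above 77.1% of genes in clone 1 and 77.3% in clone 2. LGALS9 had 1250 in clone 1 and 1081 in clone 2, above 76.7% of genes in clone 1 and 69.4% in clone 2. In CPM, LGALS8 had 66.8 in clone 1 and 62.4 in clone 2, and LGALS9 had 65.4 in clone 1 and 44.0 in clone 2.

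**Figure D1:**
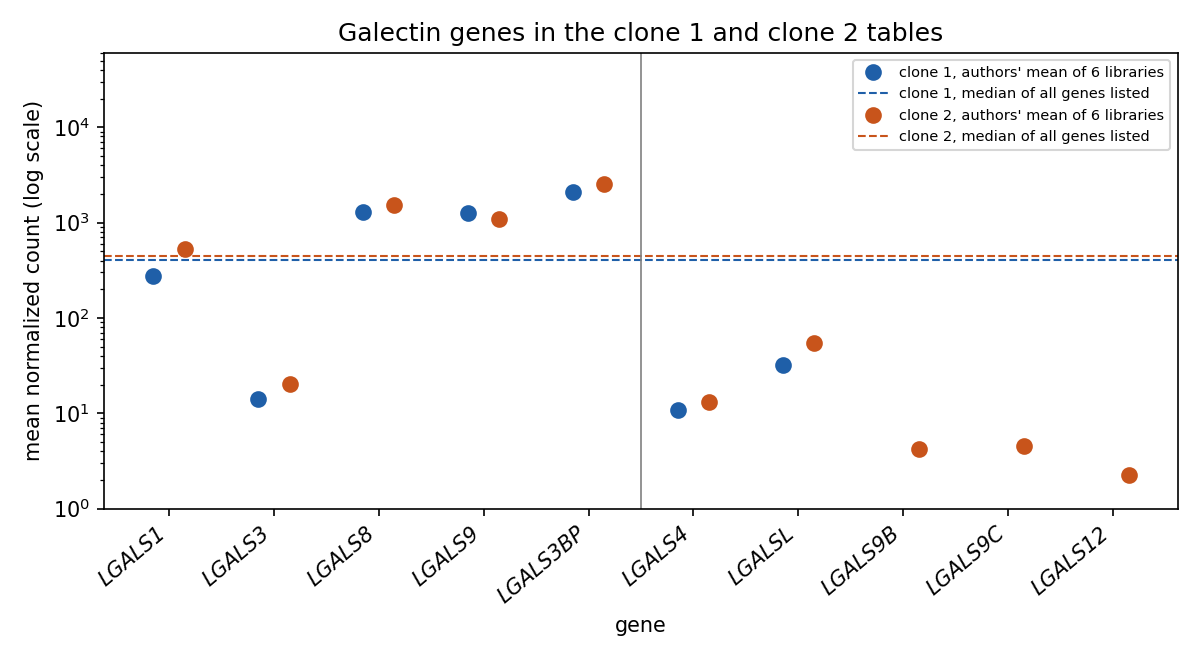
Mean normalized count on a log axis for each galectin gene listed, with clone 1 in blue and clone 2 in orange, the 5 genes described here left of the vertical line and the other listed galectin genes right of it. Each point is the authors' mean of 6 libraries and the dashed lines are the medians of all genes; LGALS8, LGALS9 and LGALS3BP lie above both medians, LGALS1 lies between 278 and 532, and LGALS3 and the other galectin genes stay at or below 55.1.

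The rest of the galectin family was close to the lower end of the tables. Of 13 other family genes looked for, 2 were listed in clone 1 and 5 in clone 2, and 8 were listed in neither. LGALSL, which codes for a galectin-related protein, had 32.3 in clone 1 and 55.1 in clone 2, and LGALS4, which codes for an intestinal galectin, had 10.8 in clone 1 and 13.1 in clone 2. LGALS9B, LGALS9C and LGALS12 appeared in the clone 2 table alone, at 4.26, 4.60 and 2.23. The lowest mean listed was 2.52 in clone 1 and 1.13 in clone 2, so a gene that is not listed may still have been transcribed at a low level. The genes in neither table were LGALS2, LGALS7, LGALS7B, LGALS13, LGALS14, LGALS16, CLC and GRIFIN.

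Whether reads could be told apart between gene copies matters most for LGALS9. Of its 3065 distinct stretches of 50 bases in the annotated transcript, 550 (17.9%) also occurred on the same strand in a transcript of another gene. These were AC015688.4 (8.12%), LGALS9C (7.50%), LGALS9DP (5.58%) and LGALS9B (5.12%), with some stretches in more than 1 of them. The coding sequences of LGALS9 and LGALS9B were identical at 96.3% of 1068 aligned bases, and those of LGALS9 and LGALS9C at 95.9%. The 90 bases below, coding bases 17 to 106 of all 3 genes on chromosome 17, are the stretch of that length with the most differences, and capitals mark the 8 positions at which the genes are not all alike.
LGALS9: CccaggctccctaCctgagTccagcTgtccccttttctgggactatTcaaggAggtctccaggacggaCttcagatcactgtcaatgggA
LGALS9B: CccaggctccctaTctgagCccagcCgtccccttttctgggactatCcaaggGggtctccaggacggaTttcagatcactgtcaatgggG
LGALS9C: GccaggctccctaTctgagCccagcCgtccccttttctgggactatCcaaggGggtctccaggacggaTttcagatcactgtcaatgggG
In clone 2, where all 3 were listed, the LGALS9 mean was 122 times the sum of the LGALS9B and LGALS9C means, with coding lengths of 1068 bases for LGALS9 and 1071 for both copies. How reads that fit more than 1 copy were counted is not given in the sources used here. The values of LGALS9, LGALS9B and LGALS9C, and the ratio between them, are therefore uncertain. How strongly each is affected was not tested. LGALS1, LGALS3, LGALS8 and LGALS3BP shared 0 such stretches on the same strand with other genes. LGALS8 overlaps genes on the opposite strand: 31.4% of its 6371 stretches occurred in reverse in transcripts of HEATR1, a ribosome biogenesis gene, and 3.66% in LGALS8-AS1. HEATR1 had a mean normalized count of 3774 in clone 1 and 4488 in clone 2, and LGALS8-AS1 had 30.2 in clone 1 and 25.7 in clone 2. The libraries were made with a stranded kit, but the strand setting of the counting is not given in the sources used here.

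Longer transcripts give more reads, so different genes were ordered by mean normalized count per kb of coding length. On this scale LGALS8, LGALS3BP and LGALS9 were nearly level in clone 1, at 1182, 1178 and 1171 mean normalized counts per coding kb, followed by LGALS1 at 681 and LGALS3 at 18.8. In clone 2 the order was LGALS3BP at 1444, LGALS8 at 1419, LGALS1 at 1305, LGALS9 at 1012 and LGALS3 at 27.0. LGALS3 stood far below the rest: the next gene above it was 36.2 times as high in clone 1 and 37.5 times as high in clone 2. Neighbours among the other 4 differed by at most 1.72 times, with no spread over libraries against which to set that. Their order also depended on the length used. Per kb of the whole annotated transcript, which counts the long untranslated ends of LGALS8, LGALS1 came second at 496 in clone 1 and 950 in clone 2, behind LGALS3BP at 861 and 1056, and LGALS8 was the lowest but for LGALS3, at 199 and 239 in the 2 clones.

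Per coding kb, the listed genes of the pre-BCR list stood above LGALS1, the gene of the ligand. The list holds the genes of the receptor that galectin-1 binds and VPREB3, which codes for a related protein. Of its 6 genes, 5 were listed in both tables (IGHM, the μ heavy chain, was not listed), and all 5 exceeded LGALS1 per coding kb. They also exceeded it by mean normalized count with no length scaling. On that scale LGALS1 itself exceeded 42.5% of all genes in clone 1 and 53.7% in clone 2. The share of all genes above LGALS1 per coding kb was not computed. Counts above LGALS1 on that scale, here and for the lists below, therefore have no background. The annotation used is not given, so the missing IGHM entry does not show that the gene was not transcribed. IGLL1, which codes for the λ5 chain that galectin-1 contacts, had a mean normalized count of 9233 in clone 1 and 12009 in clone 2, or 14381 and 18705 per coding kb in the 2 clones. Per coding kb IGLL1 was 21.1 times as high as LGALS1 in clone 1 and 14.3 times as high in clone 2. VPREB1, the other surrogate light chain gene, stood at 9.16 times LGALS1 in clone 1 and 6.23 times in clone 2. VPREB3, a related protein, stood at 7.46 times and 6.45 times in clones 1 and 2, and the lowest of the 5, the signaling chain gene CD79B, at 3.87 times and 2.75 times.

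Integrins that join the galectin-1 synapse on pre-B cells were all present. All 5 genes of the list were listed, with medians of 1797 in clone 1 and 1990 in clone 2. ITGA4 led with 2918 per coding kb in clone 1 and 3555 in clone 2, ahead of its β chain partner ITGB1 with 1587 in clone 1 and 1971 in clone 2. ITGA5, the α chain of a fibronectin receptor, had 570 in clone 1 and 632 in clone 2. ITGA4 and ITGB1 were above LGALS1 per coding kb in both clones, and the other 3 below it. With no length scaling all 5 were above LGALS1 in both clones, so this order depended on the length used. By that measure 42.5% of all genes in clone 1 and 53.7% in clone 2 lay below LGALS1.

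Known glycoprotein partners of galectins ranged from high levels to the lower end of the tables. Of 13 such genes, 12 were listed in clone 1 and 13 in clone 2, and 9 in clone 1 and 7 in clone 2 were above LGALS1 per coding kb. With no length scaling, 10 were above LGALS1 in each clone, where 42.5% of all genes in clone 1 and 53.7% in clone 2 lay below it. The share of all genes above LGALS1 per coding kb is not known, so the counts on that scale single out no list. BSG (basigin), SPN (CD43, a heavily glycosylated leukocyte surface protein) and CD47 led per coding kb, with 5923, 5530 and 2156 in clone 1 and 7320, 7081 and 3072 in clone 2. At the other end, PTPRC, which codes for CD45, a known galectin-1 partner on T cells, had a mean normalized count of only 3.67 in clone 1 and 14.5 in clone 2. HAVCR2, which codes for the galectin-9 receptor TIM-3, had 10.1 in clone 1 and 12.8 in clone 2. CD7, a T-cell partner of galectin-1, was not listed in clone 1, where the lowest mean listed was 2.52, and had 1.65 in clone 2.

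The enzymes that build or cover galectin-binding sugars were mostly expressed as well. Of 20 genes, 17 were listed in clone 1 and 19 in clone 2, with medians of 851 and 1042 in the 2 clones. MGAT5, whose product adds the N-glycan branch that favors galectin binding, led with 3413 per coding kb in clone 1 and 4146 in clone 2. ST6GAL1, whose product caps galactose with sialic acid and so hides it from galectin-1, was next with 3158 in clone 1 and 3916 in clone 2. MGAT1, which starts N-glycan branching, had 1186 in clone 1 and 1354 in clone 2. B3GNT3 was listed in neither table, and GCNT2 and ST3GAL6 were listed in clone 2 alone, at means of 3.73 and 1.33. The lowest mean listed in clone 1 was 2.52, so a gene missing there may still have been transcribed at a low level.

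**Figure D2:**
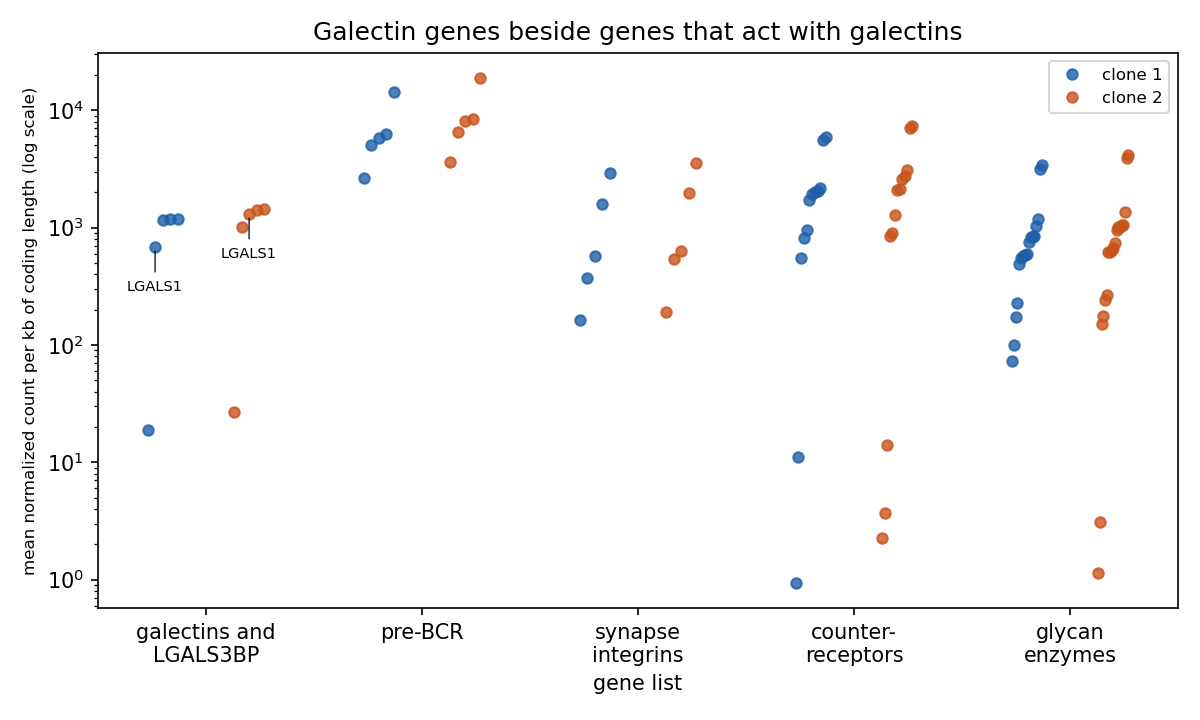
Mean normalized count per kb of coding length on a log axis, 1 point per gene and clone (clone 1 blue, clone 2 orange), for the galectin genes with LGALS3BP and for 4 lists of genes that act with them. LGALS1 lies at 681 in clone 1 and 1305 in clone 2, below all 5 genes shown for the pre-BCR list (VPREB3 included), which start at 2637 in clone 1 and 3589 in clone 2.

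The clones were then set against each other, as clone 1 over clone 2 on the scale of CPM. LGALS1 and LGALS9 went opposite ways. LGALS1 had 14.5 CPM in clone 1 and 21.7 in clone 2, a log2 difference of -0.58, and LGALS9 had 65.4 CPM in clone 1 and 44.0 in clone 2, a log2 difference of 0.57. The other 3 were nearer to 0, at -0.16 for LGALS3, 0.10 for LGALS8 and 0.07 for LGALS3BP. None of the 5 passed 2-fold in either direction, and 333 of 14349 genes with a mean of at least 10 in a clone did (2.32%).

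Against all these genes, whose median log2 difference was -0.01 and of which 5% lay below -0.48 and 5% above 0.38, LGALS1 and LGALS9 fell in opposite tails. A share of 3.81% of genes had a lower value than LGALS1, and 97.3% had a lower value than LGALS9. The median of the 5 was 0.07. Among the 5 listed genes of the pre-BCR list the values ran from -0.37 (VPREB3, a related protein) to 0.20 (CD79A). Among the 5 integrins they ran from -0.20 (ITGB7) to 0.22 (ITGA5), so no gene of either list lay as far out as LGALS1 or LGALS9. Of the partners and enzymes, PTPRC was at -1.62 and GCNT1, which builds a branch of O-glycans, at -0.69, the 2 genes below LGALS1, and none was above LGALS9. The PTPRC value rests on means of 3.67 in clone 1, close to the lowest mean listed there (2.52), and 14.5 in clone 2. Since each clone mean joins resistant and sensitive libraries, these differences belong to neither condition by itself.

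**Figure D3:**
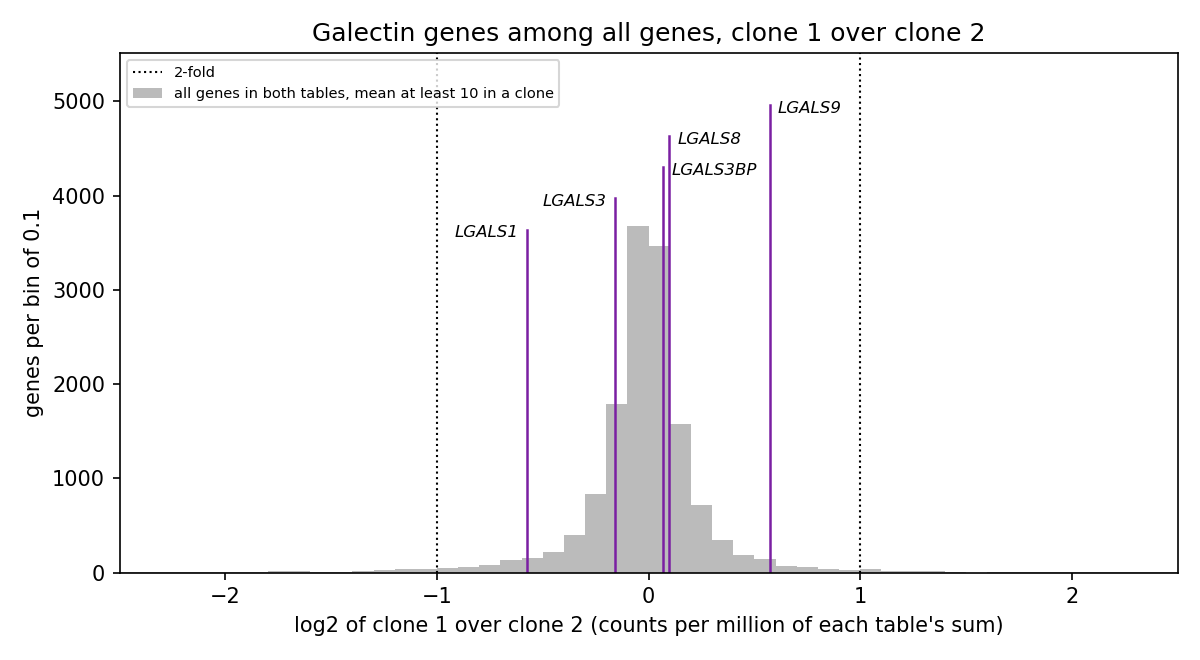
Log2 of clone 1 over clone 2, from CPM (x axis), for 14349 genes in bins of 0.1 (grey bars, number of genes on the y axis), with a purple line for each galectin gene and LGALS3BP and dotted lines at 2-fold. LGALS1 at -0.58 and LGALS9 at 0.57 lie in the opposite tails, inside the 2-fold lines, and the other 3 lie between -0.16 and 0.10.

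The identity of the cells was checked by markers. All 15 B-cell precursor markers were listed in both tables, and 14 in clone 1 and 13 in clone 2 were above LGALS1 per coding kb. With no length scaling, 14 were above LGALS1 in each clone, where 42.5% of all genes in clone 1 and 53.7% in clone 2 lay below it. MME had the lowest mean, with 67.7 in clone 1 and 67.0 in clone 2. None of 5 T-cell and 4 erythroid markers was listed. Since marrow stroma is a known source of galectin-1, its 6 markers were looked at beside LGALS1. COL1A2, COL3A1 and LUM were not listed, CXCL12 had 4.32 in clone 1 and 11.1 in clone 2, COL1A1 had 145 in clone 1 and 214 in clone 2, and the receptor gene PDGFRB had 4455 in clone 1 and 5010 in clone 2. The 3 listed markers summed to 4605 in clone 1 and 5235 in clone 2, nearly all of it PDGFRB. The libraries came from an established leukemia cell line, with no stromal cells named in the culture. The sum is therefore not a measure of stromal cells, and the source of the LGALS1 transcripts was not tested. All 5 myeloid markers were listed, from 2.82 (CD14) to 615 (CSF1R) in clone 1 and from 4.06 (CD14) to 768 (CSF1R) in clone 2. Endothelial markers reached at most 30.3 in clone 1 and 39.2 in clone 2 (PECAM1).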

How the data were processed

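RNA-seq of 12 RCH-ACV libraries was used, as 2 tables, 1 per clone. According to the submitters' notes on processing, hg19, DESeq2, FastQC 0.10.1, Picard 1.107, bedtools 2.19.0, SAMtools and BWA (0.7.7-r441 and 0.6.2-r126) were used, with no role for each. Which annotation, counting program and strand option were used is not given in the sources used here. The signal used is the mean normalized count that the authors deposited, by its column name the mean of counts divided by size factors over the 6 libraries of a clone. The other deposited columns hold the authors' own comparison of resistant with sensitive cells (log2 fold change, standard error, Wald statistic, p-value, adjusted p-value, direction) and were not used. No model was therefore fitted, and no SD, interval or test between conditions was computed. The sums of means stand in for depth. The low means of LGALS3 and most other galectin genes rest on few reads, and no intervals are given because library totals are unknown. Counting intervals at 95%, which treat the pooled means as raw counts, served only to compare alternative settings.

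Genes were matched by symbol. The 2 rows that share a symbol in each table were left out of lists, and dates stood in place of 21 symbols in clone 1 and 22 in clone 2. Coding length came from the longest coding transcript of GENCODE release 29 in place of the planned RefSeq proteins, which were not used here, and no coordinates were taken, since its build differs from hg19. The clone 1 over clone 2 ratio used CPM, means scaled to a table sum of 1000000, in Python 3.11.15 with pandas 2.3.3, numpy 2.4.6, scipy 1.17.1 and Biopython 1.88. Its code was tried on simulated data with counting noise only and planted changes larger than those of LGALS1 and LGALS9. That trial does not show how precise the values of these genes are. Named genes were the 5 genes, all other galectins, the 3 highest genes per coding kb of each fixed list with any not listed in a table, and the 3 genes nearest to LGALS1. Picked after their values were seen were AC015688.4, LGALS9DP, CD79A, CD79B, ITGB7, PTPRC, HAVCR2, GCNT1, HEATR1, LGALS8-AS1 and the markers named. Genes and lists were chosen with earlier results of these data known. Alternatives were the length, the scaling between tables, the minimum mean and the genes ranked against.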

Additional observations from a re-analysis of the deposited data

How the results depend on the processing

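Order among the 5 genes depended on the length, and LGALS3 stayed at place 5 under every length tried. With no length scaling or with 1 kb added to the coding length, LGALS3BP was place 1 and LGALS8 place 2 in clone 1, and LGALS9 was place 3 and LGALS1 place 4 in clone 2. By the whole transcript, a setting chosen after seeing the data, LGALS3BP was place 1, LGALS1 place 2 and LGALS8 place 4 in clone 1, and LGALS1 was place 2, LGALS9 place 3 and LGALS8 place 4 in clone 2. The added untranslated length is the difference between these settings. Whole transcript length was not tried for the other gene lists, so their places relative to LGALS1 hold only for the scales given. The log2 difference between clones moved little under median centring over all shared genes or without the 50 highest genes, from -0.58 to -0.57 for LGALS1 and from 0.57 to 0.58 for LGALS9. Centring on genes of similar mean, also chosen after seeing the data, gave -0.55 and 0.58. The count past 2-fold was 333, 475 with no minimum and 85 with a mean of at least 50 in both clones, so most such genes had a mean under 50 in at least 1 clone. Ranked only against genes with a mean of at least 10, LGALS1 exceeded 35.9% of genes in clone 1 and 45.4% in clone 2, and LGALS3 exceeded 3.09% and 5.93%. Ranked against genes listed for both clones, all 5 shares in clone 2 fell. They were 49.9% for LGALS1, 13.8% for LGALS3, 75.5% for LGALS8, 66.9% for LGALS9 and 85.9% for LGALS3BP. Shares in clone 1 changed little. No paired analysis was possible because only means over all libraries of a clone were used, and for the same reason no library could be left out.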
